A study of Mus musculus with 13 samples.

Results

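The muscle myosin heavy chains examined here are the products of 7 genes, Myh1, Myh2, Myh3, Myh4, Myh6, Myh7 and Myh8, of the 55642 genes in the deposited table. They were taken by gene name and not by a cut on measured values, though with earlier results of these data known. All 7 were detected with 1 or more counts somewhere in the series, and 3 of them, Myh1, Myh2 and Myh3, passed the filter on low counts that left 16848 genes for testing. The cells were C2C12, established mouse myoblasts that divide as single cells and fuse into multinucleated myotubes when the medium is changed. They were transfected with nontargeting siRNAs (control KD) or with siRNAs that deplete YBX3 (YBX3 KD), and all were harvested 48 h after transfection. Proliferating myoblasts (0 day) stayed in medium with fetal bovine serum, and differentiating myoblasts (1 day) spent their last day in medium with horse serum. Each siRNA had 4 libraries at 0 day, lettered A to D. At 1 day, control KD had 2 libraries (letters C and D), whereas YBX3 KD had 3 (letters B to D). Replicates are named by the letter in the sample description, and at 1 day the number in the sample title differs from it. All libraries came from a single cell line, and the sources used here do not say which YBX3 siRNAs were used for these libraries.

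A myosin heavy chain is the motor subunit of myosin. Its head binds actin and hydrolyses ATP, and its long coiled-coil tail packs into the thick filament of the sarcomere. Muscles differ in contraction speed largely through the heavy chain they contain: Myh4, Myh1 and Myh2 encode the adult fast IIB, IIX and IIA chains, Myh7 the slow chain that is also the beta chain of the heart, and Myh6 the alpha chain of the heart. Myh3 and Myh8 encode the embryonic and perinatal chains of developing and regenerating muscle. In C2C12 cultures these genes are known to come on late, after MyoD and myogenin have committed myoblasts to fuse. YBX3 is a Y-box protein that binds nucleic acids.

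The 5 developmental and fast skeletal genes lay in a row on the plus strand of chromosome 11 (GRCm39, GENCODE vM39). Myh3 occupied chr11:66969126-66993117, Myh2 chr11:67061838-67088989, Myh1 chr11:67089132-67116631, Myh4 chr11:67128336-67151274 and Myh8 chr11:67167746-67199462, together 230337 bp. The 2 cardiac genes lay on the minus strand of chromosome 14, Myh6 at chr14:55179367-55205887 and Myh7 at chr14:55208141-55232084. All 7 had coding sequences of nearly the same length, 5805 to 5826 bases in 38 to 41 exons. Myh1 and Myh2 were identical at 91.0% of aligned coding bases and shared an unbroken run of 268 bases, longer than the reads of about 85 bases. Myh6 and Myh7 were identical at 91.7%, with a run of 245 bases. Of all 85-base stretches of the transcript, 10.6% in Myh1, 11.7% in Myh2, 6.64% in Myh4, 8.36% in Myh8, 13.6% in Myh6 and 13.8% in Myh7 occurred unchanged in another member, against 0.202% in Myh3. The estimated counts of these genes therefore include reads that Salmon had to divide between paralogs, and the low values of Myh2, Myh4 and Myh8 beside Myh1 are uncertain for that reason.

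The 60-base coding window in which the 7 chains were least alike, with a mean identity of 60.6% between pairs, is printed 5' to 3' on the coding strand, to show where the members differ most. Capitals mark bases that differ from Myh1. It starts at coding base 1837 of Myh1 and lies in exon 15 at chr11:67099928-67099987 (GRCm39). In Myh2 it lies in exon 15 at chr11:67072110-67072169, in Myh4 in exon 14 at chr11:67139521-67139580 and in Myh8 in exon 16 at chr11:67180602-67180661. In Myh3 it is divided between exons 16 and 17, from chr11:66979893-66980068 with the intron removed. In Myh6 it lies in exon 15 at chr14:55195908-55195967 and in Myh7 in exon 17 at chr14:55224679-55224738. Myh2 differed from Myh1 at 9 of the 60 bases, Myh4 at 18, Myh8 at 20, Myh6 at 26, and Myh3 and Myh7 at 29 each.
Myh1: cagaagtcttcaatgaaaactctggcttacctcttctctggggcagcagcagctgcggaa
Myh2: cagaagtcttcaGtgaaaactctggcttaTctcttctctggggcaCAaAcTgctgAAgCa
Myh4: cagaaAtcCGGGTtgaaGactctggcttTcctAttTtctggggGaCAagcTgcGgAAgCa
Myh8: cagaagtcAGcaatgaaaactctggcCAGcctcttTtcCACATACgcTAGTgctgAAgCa
Myh3: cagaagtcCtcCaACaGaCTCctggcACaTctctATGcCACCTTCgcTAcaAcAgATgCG
Myh6: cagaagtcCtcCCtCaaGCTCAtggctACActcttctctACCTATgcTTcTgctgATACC
Myh7: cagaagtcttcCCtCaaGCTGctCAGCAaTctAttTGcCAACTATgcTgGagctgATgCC

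The promoters of the 3 members that could be tested are printed below from -100 to 19, with the annotated start base counted as 0 (RefSeq, GRCm38.p6, plus strand). Capitals mark TATAAA on the printed strand and CATTCC on either strand, the MCAT element bound by TEAD factors. The windows are chr11:67200002-67200121 for Myh1, chr11:67170927-67171046 for Myh2 and chr11:67078200-67078319 for Myh3. TATAAA began at -32 in Myh1 and at -29 in Myh3, whereas in Myh2 it began at 10, after the annotated start. In windows from 250 bases before to 50 after the start, TATAAA was found in 5 of the 7 members (also Myh4 and Myh6), against 8.32% of 32851 promoters in the table. It began at -213 and -31 in Myh4 and at 1, after the annotated start, in Myh6. A MEF2 site was found in Myh1, Myh4 and Myh8, against 1.86% of promoters on both strands. CANNTG, the E-box that MyoD and myogenin bind, was in Myh3, Myh4, Myh6, Myh7 and Myh8 but not in the windows of Myh1 and Myh2, and 72.3% of promoters held it. CATTCC was in Myh1, Myh4, Myh6 and 1 of the 2 promoters of Myh7, against 14.7% of promoters. A CArG box was in Myh4 alone, against 1.63%. A match of letters describes the window only and says nothing of binding.
Myh1: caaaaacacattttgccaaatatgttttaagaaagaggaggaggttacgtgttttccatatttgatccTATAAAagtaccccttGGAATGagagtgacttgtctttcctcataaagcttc
Myh2: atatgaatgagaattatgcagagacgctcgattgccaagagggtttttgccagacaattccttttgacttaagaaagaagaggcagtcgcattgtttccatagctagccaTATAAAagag
Myh3: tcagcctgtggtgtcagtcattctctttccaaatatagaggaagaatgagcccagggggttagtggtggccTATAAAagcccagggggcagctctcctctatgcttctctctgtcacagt

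Library totals ranged from 33451547 to 71811371 counts, so that 3 counts corresponded to between 0.0417 and 0.0926 CPM (counts per 1000000 counts of the library, whose total was scaled by TMM factors). Ybx3 itself lay between 265 and 347 CPM in the 6 control KD libraries and between 28.7 and 71.5 CPM in the 7 YBX3 KD libraries, with no overlap and a log2 fold change of -2.81 (SE 0.17, edgeR quasi-likelihood test, adjusted p = 5.26e-06). All 8 skeletal myoblast markers had at least 10 counts in a library, summing to 434 to 652 CPM. Of the 10 cardiomyocyte markers 3 reached 10 counts in a library, and the 10 summed to 29.3 to 43.5 CPM. Among them, Nkx2-5 was at 13.3 to 21.6 CPM and Gata4 at 14.8 to 23.0 CPM. The adipocyte markers summed to at most 0.176 CPM. Smooth muscle markers, several of which myoblasts also express, summed to 750 to 1271 CPM.

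Myh1 was the most abundant member in every library. Its levels at 0 day were 13.05, 22.1, 11.96 and 0.586 CPM in control KD A to D and 32.7, 22.1, 14.4 and 4.61 CPM in YBX3 KD A to D. At 1 day they were 12.4 and 1.31 CPM in control KD C and D and 7.40, 57.3 and 1.07 CPM in YBX3 KD B, C and D. The group means were 11.9 ± 8.81 (SD, n = 4), 18.4 ± 11.9 (n = 4), 6.84 ± 7.83 (n = 2) and 21.9 ± 30.8 CPM (n = 3) in the same order, and the groups overlapped in every comparison. The highest library, YBX3 KD 1 day C, exceeded the lowest, control KD 0 day D with 19 Myh1 counts, 97.7-fold. For Myh9, the non-muscle heavy chain of the cell cortex and stress fibers, the highest library (YBX3 KD 0 day C) exceeded the lowest (control KD 0 day B) 1.40-fold.

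**Figure D1:**
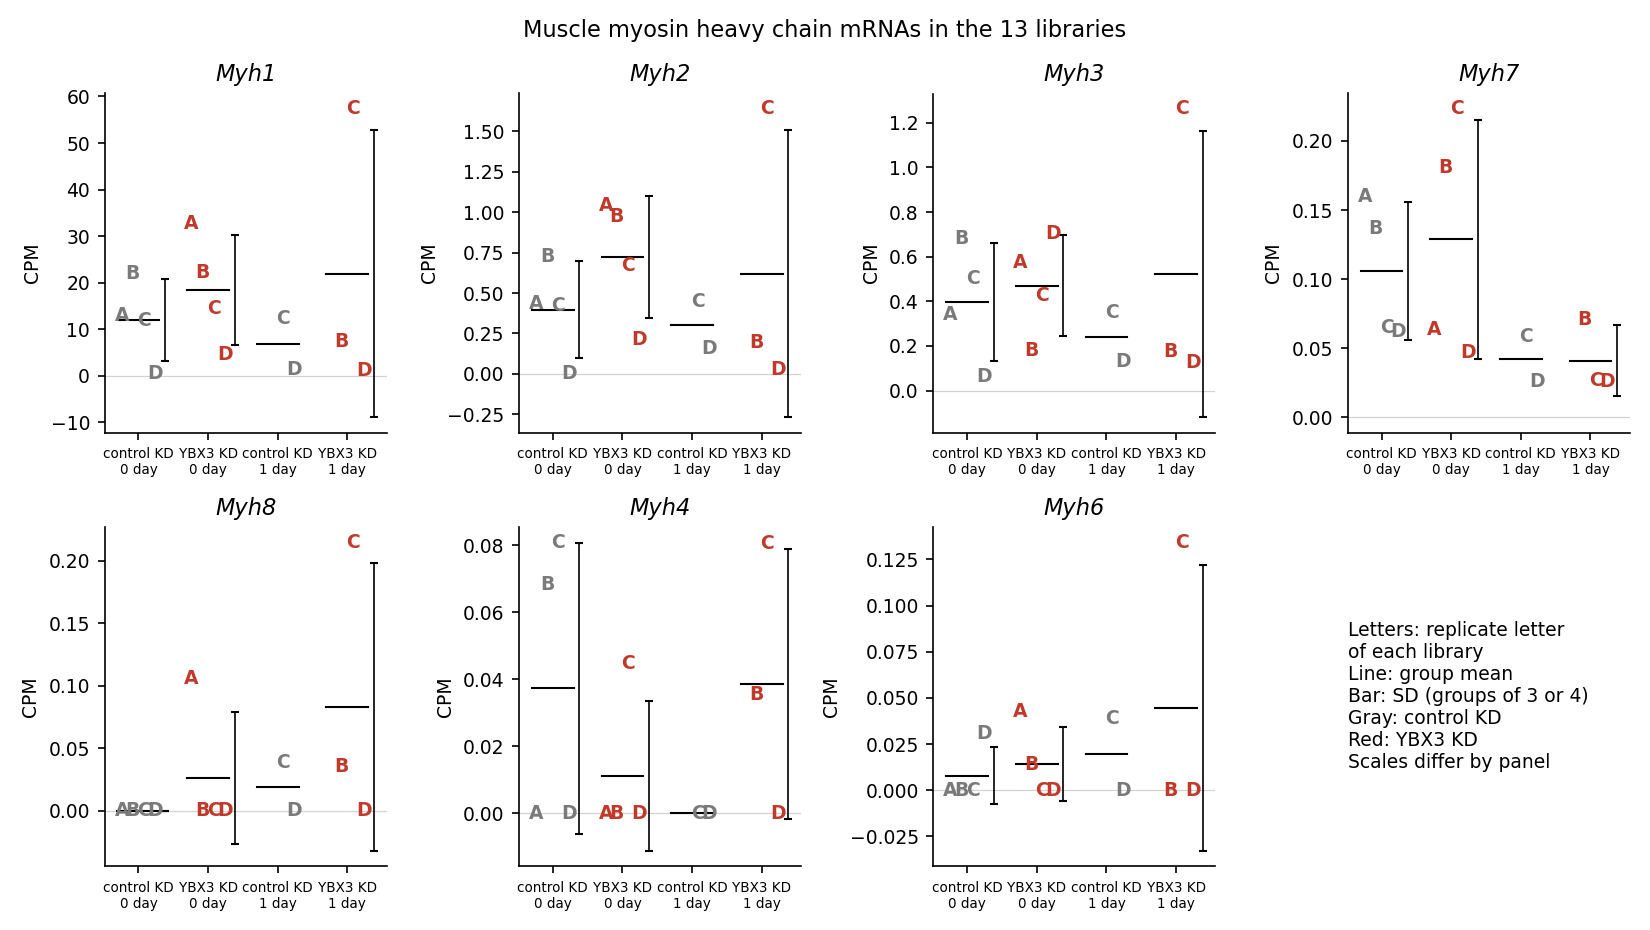
Levels of the 7 muscle myosin heavy chain mRNAs in CPM (linear axes that differ by panel) in the 13 libraries, each shown by its replicate letter, in gray for control KD and red for YBX3 KD. Horizontal lines are group means and bars are SD for groups of 3 or 4 (some reach below 0 because the SD exceeds the mean). Myh1 runs from 0.586 to 57.3 CPM and is lowest in the 4 D libraries, Myh3 is second highest in YBX3 KD 0 day D, and YBX3 KD 1 day C is highest for Myh1, Myh2, Myh3, Myh8 and Myh6.

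Myh2, the adult IIA chain encoded next to Myh1, was measured at 0 day at 0.433, 0.729, 0.420 and 0 CPM in control KD A to D and at 1.04, 0.974, 0.670 and 0.211 CPM in YBX3 KD A to D. At 1 day it was at 0.446 and 0.157 CPM in control KD C and D and at 0.194, 1.64 and 0.0256 CPM in YBX3 KD B, C and D. These values stood on 337 counts in all 13 libraries, with no count in control KD 0 day D, where a count of 0 allows up to 0.0926 CPM. The order of libraries was broadly that of Myh1: the D libraries were among the lowest and YBX3 KD 1 day C was highest. Where Myh2 had counts, Myh1 had 8.33 to 42.0 times as many, with the lowest ratio in control KD 1 day D on 6 Myh2 counts.

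Myh3, the embryonic chain, had 252 counts in all. At 0 day it was at 0.342, 0.683, 0.501 and 0.0617 CPM in control KD A to D and at 0.572, 0.181, 0.424 and 0.705 CPM in YBX3 KD A to D. At 1 day it was at 0.349 and 0.131 CPM in control KD C and D and at 0.176, 1.26 and 0.128 CPM in YBX3 KD B, C and D. Myh3 departed from Myh1 and Myh2 in 2 libraries: YBX3 KD 0 day D, where it was the highest of the 0 day libraries, and YBX3 KD 0 day B, where it was the second lowest of them. The groups overlapped in every comparison.

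The other 4 members were near the limit of detection. Myh7, the slow and cardiac beta chain, had 57 counts in all, with 7, 6, 4 and 2 counts in control KD 0 day A to D and 3, 13, 10 and 2 in YBX3 KD 0 day A to D. At 1 day it had 3 and 1 counts in control KD C and D and 4, 1 and 1 in YBX3 KD B, C and D. In CPM, both control KD libraries at 1 day (0.0582 and 0.0261) lay below the 4 at 0 day (0.0617 to 0.160), the only comparison in which a member's groups did not overlap, and it rested on 1 to 7 counts a library. Of the genes tested, which do not include Myh7, 2.93% lay lower and 2.78% higher at 1 day without overlap in the same libraries. Myh8, the perinatal chain, had 17 counts: 5 in YBX3 KD 0 day A, 2 in control KD 1 day C, 2 and 8 in YBX3 KD 1 day B and C, and none in the other 9 libraries. Myh4, the fastest adult chain, had 15 counts in 5 libraries, and Myh6, the cardiac alpha chain, 11 counts in 5 libraries, with at most 5 in any library for either gene. Differences in these 3 genes were not detectable at this depth.

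Per kilobase of transcript, which allows levels of different genes to be set side by side, Myh1 averaged 2.05 CPM per kb over the 13 libraries, Myh2 0.0785, Myh3 0.0703, Myh7 0.0144, Myh8 0.00494, Myh4 0.00400 and Myh6 0.00321. Neighbours in this order were compared within libraries by a two-sided exact sign-flip permutation test over the 13 libraries, with p-values adjusted over the 6 pairs. Myh1 exceeded Myh2 26.1-fold on average and in 13 of 13 libraries (adjusted p = 0.00073, raw p = 0.00024, the smallest that the exact test can give). Myh3 exceeded Myh7 4.90-fold and in 13 of 13 libraries, with the same p-values. Myh2 and Myh3 were not distinguished (Myh2 higher in 7 of 13 libraries, exact adjusted p = 0.75), nor were Myh7 and Myh8 (11 of 13, exact adjusted p = 0.14), Myh8 and Myh4 or Myh4 and Myh6 (exact adjusted p = 0.75 each). Libraries of the same letter deviated together, so the 13 are not fully independent. With merged exons of all isoforms as the length, Myh3 stood above Myh2 and Myh4 above Myh8.

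Myh1 made up 75.5 to 93.9% of the summed level per kilobase of the 7 members. In the 9 libraries of letters A to C its share was 89.9 to 93.9%, and in the 4 D libraries 75.5 to 83.0%, where Myh3 took 9.75 to 15.2% against 0.956 to 4.73% in A to C. In control KD 0 day D the whole family had 24 counts. The non-muscle chains Myh9 (401 CPM per kb) and Myh10 (8.36 CPM per kb) stood above Myh1, Myh9 by 196-fold, and Myh14 (0.359 CPM per kb) stood between Myh1 and Myh2. Among the 16848 genes tested, Myh1 was at the 48.8th percentile of mean CPM, Myh2 at the 17.4th and Myh3 at the 14.8th.

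**Figure D2:**
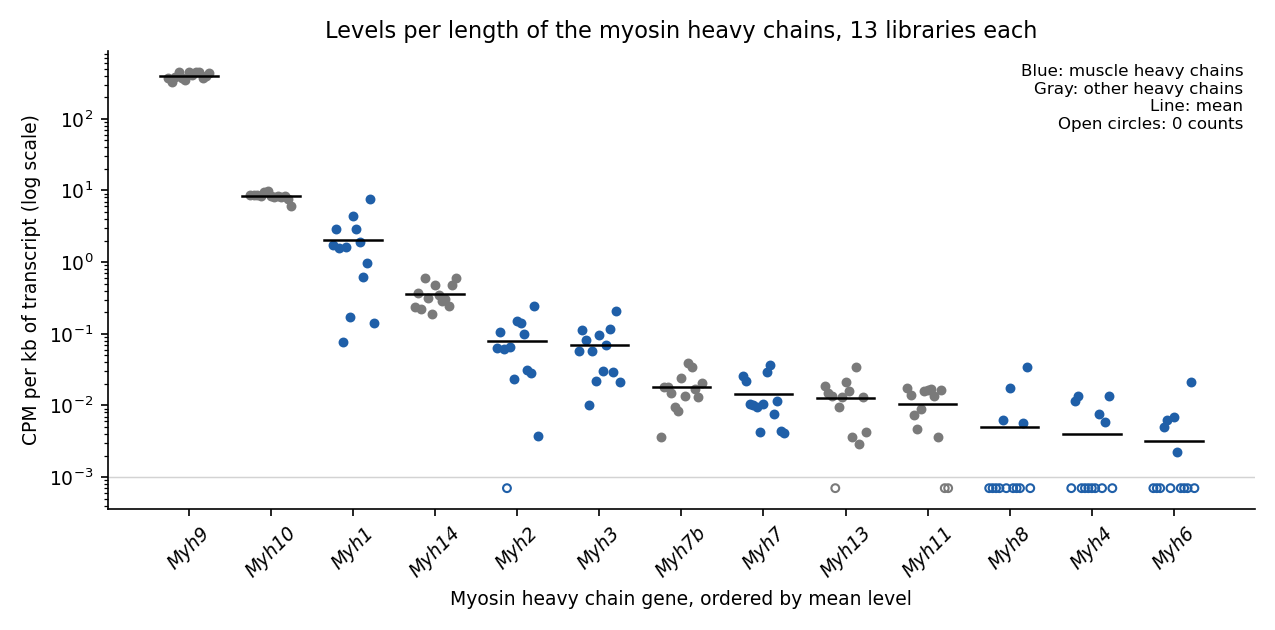
Levels of 13 myosin heavy chain genes in CPM per kb of transcript (log axis), ordered by mean, with 1 point per library and a line at the mean. Muscle heavy chains are blue, other heavy chains gray, and open circles under the line are libraries with 0 counts. Myh1 spreads over 97.7-fold while Myh9 and Myh10 stay within 1.40-fold and 1.61-fold.

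The first question was whether depletion of YBX3 altered the heavy chain mRNAs. Over both days, none of the 3 tested members was called at a fold change above 1.3 and an adjusted p under 0.001, the thresholds used throughout, against 0.113% of all genes (19 of 16848). Myh1 had a log2 fold change of 1.00 for YBX3 KD over control KD (SE 0.89, 95% confidence interval -0.94 to 2.94, edgeR adjusted p = 0.64), Myh2 of 0.90 (SE 0.77, -0.77 to 2.56, adjusted p = 0.62) and Myh3 of 0.50 (SE 0.61, -0.82 to 1.83, adjusted p = 0.74). None of the 3 reached an unadjusted p of 0.05, which 2636 genes did. Without YBX3 KD 1 day C, the values were 0.21 for Myh1, 0.23 for Myh2 and -0.05 for Myh3. With replicates A to C alone, they were 0.79, 0.83 and 0.00. The groups of all 3 genes overlapped, with 3 of 7 YBX3 KD libraries above every control KD library for Myh1 and Myh2 and 2 of 7 for Myh3. The intervals are wide enough to hold both a fall and a rise.

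Within 0 day, 0 of the 3 members were called, against 0.0297% of all genes (5 called, 1861 with unadjusted p under 0.05). Myh1 differed by 0.63 (SE 1.12, -1.83 to 3.08, edgeR adjusted p = 0.93), Myh2 by 0.85 (SE 0.99, -1.33 to 3.02, adjusted p = 0.86) and Myh3 by 0.20 (SE 0.77, -1.49 to 1.89, adjusted p = 0.98). With replicates A to C alone, Myh3 turned to -0.41, while Myh1 was at 0.55 and Myh2 at 0.76. Within 1 day, no gene was called (0%, 1312 genes with unadjusted p under 0.05). Ybx3 itself was not called there, although it stood at 0.206 of control KD in C and 0.0975 in D. With 2 control KD and 3 YBX3 KD libraries, the lack of calls at 1 day therefore does not show that genes were unchanged. Myh1 differed by 1.67 (SE 1.54, -1.69 to 5.03, adjusted p = 0.82), Myh2 by 0.98 (SE 1.35, -1.96 to 3.93, adjusted p = 0.87) and Myh3 by 1.06 (SE 1.05, -1.24 to 3.37, adjusted p = 0.83). Without YBX3 KD 1 day C these turned to -0.67, -1.36 and -0.65, so that this single library set their direction. The difference of the YBX3 KD effect between the days was 1.04 (SE 1.85) for Myh1, 0.13 (SE 1.64) for Myh2 and 0.86 (SE 1.297) for Myh3, with 0% of genes called and edgeR adjusted p = 1.00 for each. That difference also changed sign without YBX3 KD 1 day C, to -1.29 for Myh1, -2.21 for Myh2 and -0.85 for Myh3.

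**Figure D3:**
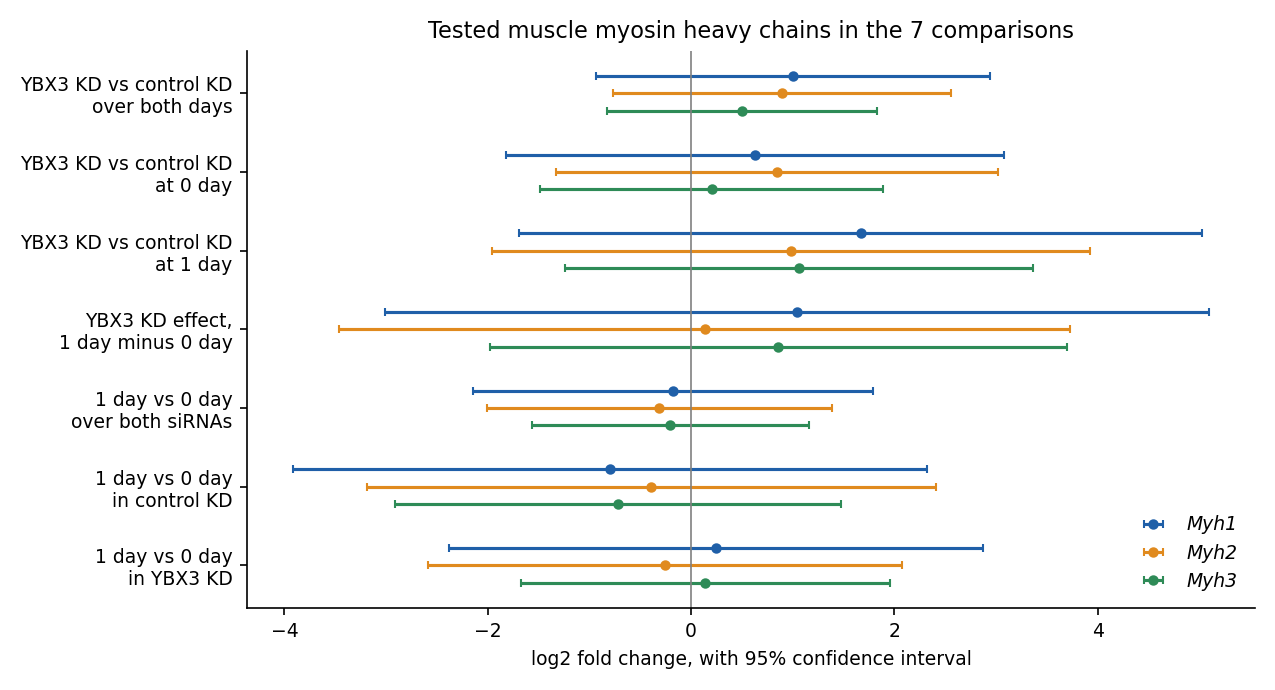
Log2 fold changes (horizontal axis) of Myh1, Myh2 and Myh3 in the 7 comparisons, each point with its 95% confidence interval from edgeR. All 21 intervals include 0, and for each gene the widest is that of the difference of the YBX3 KD effect between the days.

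The letters offered a second view, because the YBX3 KD and control KD libraries of the same letter and day form 6 pairs. The ratio of Myh1 in YBX3 KD to control KD was 2.51 in A, 1.00 in B, 1.1997 in C and 7.85 in D at 0 day, and 4.63 in C and 0.823 in D at 1 day. It was above 1 in 5 of 6 pairs, in B only beyond the third digit, with a median of 1.85. Myh2 was higher in YBX3 KD in 4 of the 5 pairs with counts in both libraries (0.163 to 3.67), Myh3 in 3 of 6 (0.265 to 11.4) and Myh7 in 2 of 6 (0.398 to 3.45). The highest ratios rested on few counts: 196 against 19 for Myh1, 30 against 2 for Myh3 and 10 against 4 for Myh7. The sum of the 7 members was higher in 4 of 6 pairs (0.774 to 7.52). By comparison, Ybx3 was lower in 6 of 6 pairs, at 0.0975 to 0.206 of control KD.

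**Figure D4:**
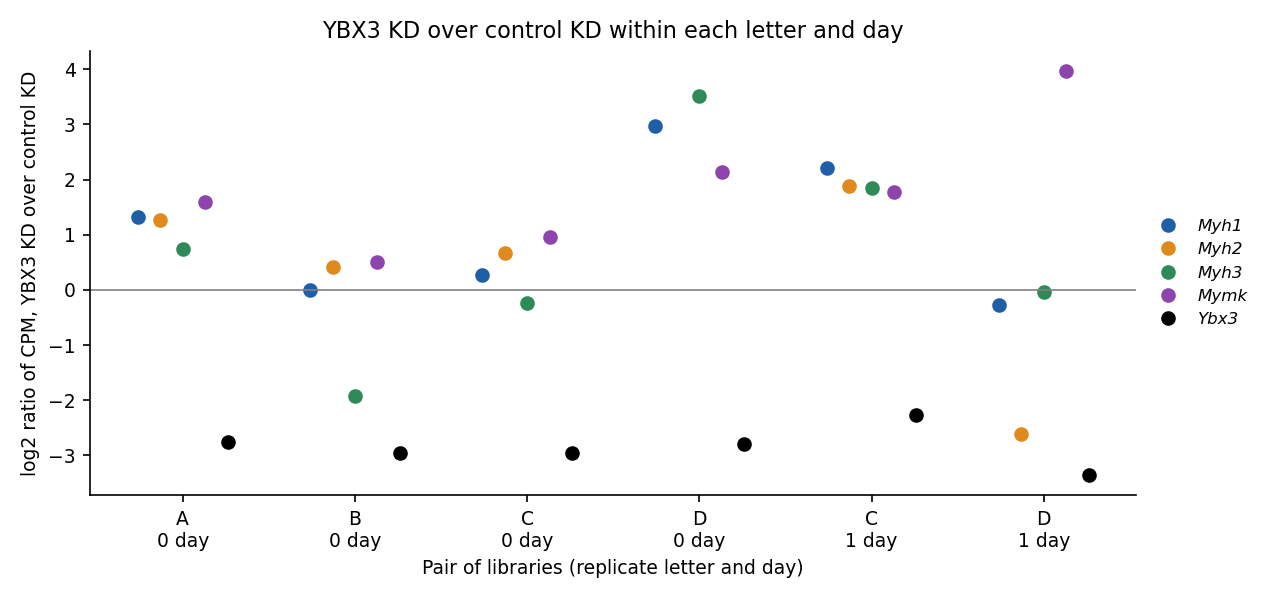
Log2 ratio of CPM in YBX3 KD over control KD within each of the 6 pairs of the same letter and day, for Myh1, Myh2, Myh3, the fusion gene Mymk and Ybx3. The line at 0 marks equal levels. Ybx3 sits below 0 and Mymk above 0 in every pair, whereas the heavy chains fall on both sides; Myh2 has no point in D at 0 day, where control KD had 0 counts.

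The second question was whether a day of differentiation medium moved the heavy chains. Over both siRNAs, 0 of the 3 members and 0% of all genes were called (477 genes with unadjusted p under 0.05). Myh1 differed by -0.18 between 1 day and 0 day (SE 0.91, 95% confidence interval -2.15 to 1.79), Myh2 by -0.31 (SE 0.78, -2.01 to 1.39) and Myh3 by -0.21 (SE 0.63, -1.57 to 1.16), with edgeR adjusted p = 1.00 for each. With replicates A to C alone Myh1 turned to 0.18 and Myh3 to 0.36, and leaving out 1 library at a time moved Myh1 between -1.41 (without YBX3 KD 1 day C) and 0.19 (without control KD 1 day D). In control KD alone the values were -0.79 (SE 1.43), -0.39 (SE 1.28) and -0.72 (SE 1.00), with 0% of genes called and 242 at an unadjusted p under 0.05, and Myh1 there moved to -3.20 without control KD 1 day C and to 0.052 without control KD 1 day D. In YBX3 KD alone they were 0.25 (SE 1.199), -0.26 (SE 1.06) and 0.14 (SE 0.83), with 0% called and 721 at an unadjusted p under 0.05. In the 5 pairs of the same letter and siRNA, Myh1 was higher at 1 day in 3 (ratios 0.233 to 3.99), Myh3 in 2 of 5 and Myh2 in 2 of 4. Myh7 was lower at 1 day in 5 of 5 pairs (0.120 to 0.900), on at most 13 counts a library and without a test.

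The libraries also differed by replicate letter. Myh1 averaged 1.89 CPM in the 4 D libraries (0.586 to 4.61) and 21.5 CPM in the 9 of letters A to C (7.40 to 57.3), with no overlap, and D libraries were present in all 4 groups. Of all genes tested, 9.1% lay lower in D without overlap and 9.66% higher, so such a separation was common, and Myh2 and Myh3 overlapped. Other genes of the sarcomere were divided. Of 9 thick filament and M-band genes tested, 2 lay lower in D without overlap and 0 higher, as did 2 of 16 thin filament genes and 2 of 3 sarcomeric light chains, and the others overlapped. Myl1, a fast myosin light chain, was at 3.92 to 11.3 CPM in D and 14.01 to 73.7 CPM in A to C. Mybph, a thick filament protein, was at 0.0309 to 0.188 CPM in D and 0.424 to 6.66 CPM in A to C, and Ttn, the giant spring of the sarcomere, at 9.69 to 53.9 and 28.0 to 92.8 CPM. Des, the muscle intermediate filament protein desmin, went the other way without overlap, at 43.7 to 54.8 CPM in D and 15.5 to 25.9 CPM in A to C. Of the 8 skeletal myoblast markers tested, 1 lay higher in D without overlap, 1 lower, and 6 overlapped. Mef2c, a transcription factor of the MEF2 family that acts on muscle genes, was at 1.36 to 2.06 CPM in D and 4.39 to 6.54 CPM in A to C. Of the 22 regulators of heavy chain genes tested, 4 lay lower in D without overlap, 1 higher, and 17 overlapped. Alpl, an osteoblast marker, was also higher in D, at 0.314 to 1.203 CPM in D and at most 0.0806 CPM in A to C. Of the 3 osteoblast markers tested, 1 lay higher in D without overlap and 2 overlapped. The 5 osteoblast markers summed to 84.2 to 98.0 CPM in D and 87.2 to 135 CPM in A to C. Nearly all of that sum was Runx2, at 83.3 to 135 CPM over the 13 libraries. The summed smooth muscle markers were at 750 to 965 CPM in D and 961 to 1271 CPM in A to C. The sources used here do not say what the letter stands for, and its part in the levels was not tested. In bulk RNA, fewer cells that had begun to differentiate and less heavy chain mRNA per cell cannot be told apart.

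Over the 13 libraries, Myh1 and Myh2 varied together (Pearson r = 0.97 of log2 CPM), and Myh3 less closely with either (0.79 and 0.77). These correlations describe libraries that share letters and depth, and neighbouring genes that share reads. The 5 genes most like the sum of the members were Igfn1, Igf2, Jsrp1, Cacna1s and Trim72 (r = 0.96 to 0.97). Cacna1s encodes the voltage sensor of skeletal muscle excitation, Jsrp1 a protein of the junction at which it signals, Trim72 a membrane repair protein and Igf2 a growth factor that promotes myogenic differentiation. Without YBX3 KD 1 day C, Jsrp1 and Igfn1 were again among the first 5. For Myh1 alone the 3 most like genes were Igf2, Jsrp1 and Igfn1 (r = 0.97 each), for Myh2 Pfn2, Sardh and Map2 (0.95 to 0.96) and for Myh3 Tacc1, Gm37626 and Dclk1 (0.86 to 0.90). Myl1 (0.94), Acta1, the skeletal actin of the thin filament (0.93), Mybph (0.92) and Ttn (0.92) also followed the sum, Myog less so (0.63). The thick filament and M-band list ranged from -0.49 (Mybpc2) to 0.92 with a median of 0.86 over 9 genes, and the thin filament list from -0.59 (Tmod4) to 0.93 with a median of 0.62 over 16. Such likeness was not limited to genes of the sarcomere. The 6 smooth muscle markers tested ranged from 0.26 to 0.93 (Acta2), with a median of 0.62. Against the sum ran Des (-0.77), the myosin kinase gene Mylk2 (-0.65) and Trim63 (-0.60), which encodes a ubiquitin ligase of the sarcomere. Of the 8 skeletal myoblast markers, Des alone was below 0 and 7 were above, with a median of 0.58. Of 11 genes for myosin folding, turnover and kinases, 6 were above 0 and 5 below. They ranged from -0.65 to 0.84 (Trim55), with a median of 0.09.

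**Figure D5:**
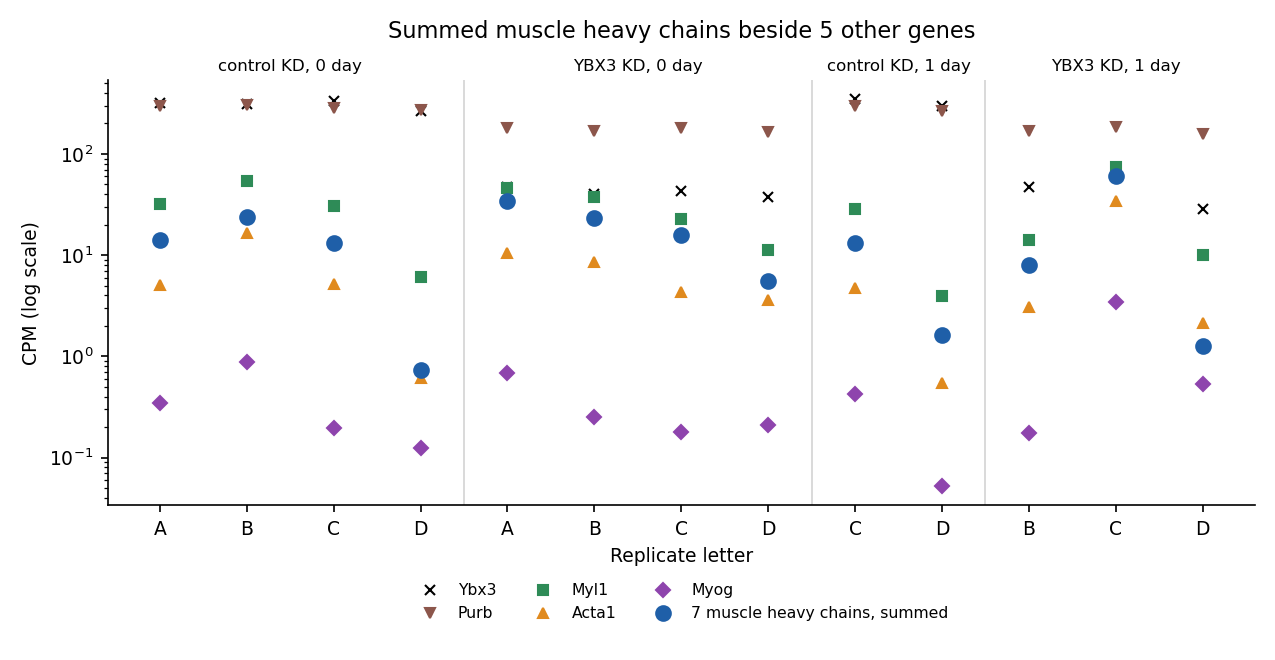
Summed level of the 7 muscle heavy chains beside Ybx3, Purb, Myl1, Acta1 and Myog in each library, in CPM (log axis), by replicate letter within the 4 groups. Ybx3 and Purb step down with YBX3 KD in every letter. The heavy chains and Myl1 are lower in every D library than in any other, and YBX3 KD 1 day C stands highest for the sum (60.7 CPM), Myl1, Acta1 and Myog.

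Of 25 regulators known to act on heavy chain genes, 22 were tested and 1 was called in YBX3 KD over both days, against 0.113% of all genes (19 of 16848). Purb, which encodes a single-stranded nucleic acid binding protein known as a repressor of myosin heavy chain genes, was at 297, 303, 285, 273, 300 and 265 CPM in the control KD libraries and at 181, 167, 180, 165, 170, 184 and 159 CPM in the YBX3 KD libraries. No library overlapped, and Purb fell by 0.73 on the log2 scale (SE 0.06, edgeR adjusted p = 2.42e-05). Pura, its close relative, was at 40.6 to 44.1 and 30.4 to 37.2 CPM, also without overlap, with a log2 fold change of -0.35 (SE 0.06, adjusted p = 0.0084), short of both thresholds. Sp3, another repressor of these genes, differed by -0.05. How many of all genes separated without overlap between YBX3 KD and control KD was not counted. The members and these regulators share every library, and whether one follows from the other was not tested.

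The activators of the myogenic program were not called. Myod1, which encodes the determination factor MyoD, was at 0.601 to 1.80 CPM in control KD and 1.15 to 3.32 CPM in YBX3 KD, higher in 6 of 6 pairs, with a log2 fold change of 1.11 (SE 0.29, edgeR adjusted p = 0.073). It was called by DESeq2 with the letter as a block (1.06, adjusted p = 7.81e-05) but not by edgeR with that block (1.06, adjusted p = 0.016). Mymk, which encodes the fusion protein myomaker, was higher in 6 of 6 pairs (1.42-fold to 15.7-fold), with a log2 fold change of 1.26 (SE 0.56, edgeR adjusted p = 0.30). Its highest ratio rested on 48 against 3 counts. The gene Mymk was therefore measured coarsely in that pair. Mymx, the partner of Mymk, had at most 10 counts in a library and was not tested. Myog, the myogenin gene, had 2 to 39 counts in 12 libraries and 129 in YBX3 KD 1 day C, the library with the highest Myh1 level. Its log2 fold change of 0.72 (SE 0.86, adjusted p = 0.74) became -0.00043 without that library. Myf5 (0.17), Myf6 (0.35) and Mef2c (-0.13) were not called either.

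The other proteins of the filaments gave no calls in YBX3 KD over both days. Of 11 thick filament and M-band genes, 9 were tested and 8 had log2 fold changes above 0, with a median of 0.72 and 3 at an unadjusted p under 0.05. Of 18 thin filament genes, 16 were tested and 14 were above 0, with a median of 0.31. All 3 sarcomeric light chains tested were above 0, with a median of 0.48: Mylpf 0.85 (SE 0.58), Myl4 0.48 (SE 0.44) and Myl1 0.32 (SE 0.64). The median of all genes tested was 0.00080, and 50.1% of them were above 0. Of 11 genes for myosin folding, turnover and kinases, 6 were above 0 and 5 below, with a median of 0.06. Ttn (0.82, SE 0.44) and Acta1 (0.76, SE 0.90) were not called. The chaperone gene Hsp90ab1 (-0.31, SE 0.07, edgeR adjusted p = 0.044) was not called either. The same held for Chrna1, the acetylcholine receptor subunit of muscle (0.37, SE 0.09, edgeR adjusted p = 0.045). Of the 4 non-muscle and smooth muscle heavy chains, Myh9 (0.18), Myh10 (-0.19) and Myh14 (0.28) were tested and not called. The genes of each list share libraries and vary together, so their counts on one side of 0 are a description.

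The annotation places several noncoding genes among the heavy chain genes. On the strand opposite Myh1 and Myh2, 9430073C21Rik overlaps the end of Myh2 and the start of Myh1 and had 117 counts in the 13 libraries, between 3 and 23 in each. Its log2 CPM correlated with that of Myh1 at r = 0.42 and of Myh2 at r = 0.55 over the 13 libraries, which share letters and depth. It was highest in YBX3 KD 0 day A (0.381 CPM) and lowest in YBX3 KD 0 day D (0.0705 CPM). Its log2 fold change in YBX3 KD over both days was -0.12 (SE 0.45, edgeR adjusted p = 0.93). Between Myh3 and Myh2, 2310065F04Rik had 28 counts, and Myhas, which runs on the opposite strand from within Myh1 to the start of Myh4, had 13. On chromosome 14, Mhrt, which lies opposite Myh7, and the microRNA genes Mir208a and Mir208b, within Myh6 and Myh7, had 0 counts. The libraries were made from mRNA, so 0 counts of a microRNA gene do not show that the microRNA was absent. The library kit marked strand, but the strand setting used in counting is not given in the sources used here, so that reads of overlapping sense and antisense genes may not be fully separated.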

How the data were processed

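Per the labels and the study's methods, the authors sequenced stranded mRNA libraries of C2C12 cells and quantified the reads with Salmon (GRCm39, version not given in the sources used here). The deposited values are estimated counts per gene, already whole numbers, and how they were made whole is not given in the sources used here. Here, all 13 libraries entered each main fit in edgeR 4.0.16 (R 4.3.3, TMM factors, quasi-likelihood test). The fits covered the 16848 of 55642 genes left by edgeR's filter on low counts, with p-values adjusted over those genes by the Benjamini-Hochberg method. The comparisons over both days and over both siRNAs used additive terms for day and siRNA. The other comparisons used 1 coefficient for each of the 4 groups. A gene was called at a fold change above 1.3 and an adjusted p under 0.001, the study's thresholds. DESeq2 1.42.0 and limma 3.58.1 gave alternatives. Only the edgeR fits over both days and over both siRNAs were run on simulated counts, which held no effect of the replicate letter. Levels are CPM of the scaled library. Correlations used log2 CPM with a prior count of 2.

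Library totals of 33451547 to 71811371 counts limit the precision of the rarer members, and limits set from counts cover counting error only. The labels call the replicates biological without naming separate cultures, so p-values measure the spread between these samples. The deviations of same-letter libraries from their group means correlated above 0.1 in 16 of 16 pairs (median 0.338). Of pairs of different letters, 11 of 46 did so (median -0.146, highest 0.419). Of pairs of the same title number, 8 of 16 did, and at 0 day these are also pairs of the same letter. Same-letter correlations were 0.409 to 0.730 in D and 0.117 to 0.358 in A to C, so the pairing was clearest in D. The study's methods name no block, and the blocked fits are alternatives. Columns of samples not in this series numbered 0.

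Named genes were the 7 members, the genes of fixed lists that the comparisons turn on, and the genes with the highest correlation with the members. The members and lists were chosen with earlier results of these data known. Alternatives covered the test, normalization, filter, block, libraries in the fit, threshold and each library left out.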

Additional observations from a re-analysis of the deposited data

Results flagged for a closer look

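In 3 of the 13 groups of 4 libraries examined for members, 1 library held the only counts of its group. Dixon's test marks any such library, however few its counts, so its usual rate of about 1 in 20 by chance does not apply here. Myh4 was at 0.0446 CPM in YBX3 KD 0 day C, from 2 counts. Myh6 was at 0.0309 CPM in control KD 0 day D, from 1 count. Myh8 was at 0.106 CPM in YBX3 KD 0 day A, from 5 counts.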

How the results depend on the processing

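No member was called in any comparison under any alternative run, 0 throughout in 17 to 24 settings a comparison, with an adjusted p threshold of 0.05 included. Of 403 alternative log2 fold changes of members, 357 kept their sign and 46 did not. Over all genes and both days the calls numbered 19, against 183 by DESeq2, 185 by limma-voom, 250 at an adjusted p of 0.05, 102 with replicates A to C alone, 9 with the title number as a block and 423 by DESeq2 with the letter as a block. At 0 day they numbered 5, against 99 by DESeq2, 249 by DESeq2 with the letter as a block, 43 by limma-voom, 70 at an adjusted p of 0.05, 2 with the compared libraries alone and 0 with the title number as a block.

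In the paired fits, the letter as a replicate block gave Myh1 a log2 fold change of 1.00 over both days (adjusted p = 0.23), and among the 3 tested members, Ybx3, Purb, Pura, Myod1, Mymk and Myog the block changed the call of Myod1 alone, by DESeq2. Other named genes were not refitted singly. Signs turned in these fits for Myh2 in YBX3 KD at 1 day (-0.16, DESeq2 with the block). For the difference between days they turned for Myh1 (-0.30, DESeq2 with the block) and Myh2 (-1.38 by DESeq2 with the block, -0.69 with the letter, -0.38 with the title number). For 1 day against 0 day in control KD, Myh2 turned to 0.70 by DESeq2 with the block and 0.21 with the letter. In YBX3 KD, Myh1 turned to -0.42, -0.24 and -0.89 and Myh3 to -0.46, -0.27 and -0.27 in the same 3 fits. limma-voom turned Myh3 at 0 day to -0.14 and Myh2 between days in YBX3 KD to 0.093. Replicates A to C alone turned Myh3 at 0 day to -0.41, and Myh1 and Myh3 between days over both siRNAs to 0.18 and 0.36. The cause was not tested.

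Leaving out 1 library at a time gave these lowest and highest log2 fold changes where a sign turned. For YBX3 KD over both days they were -0.051 and 0.76 for Myh3 and -0.00043 and 1.35 for Myog. At 0 day they were -0.14 and 0.56 for Myh3. At 1 day they were -0.67 and 4.05 for Myh1, -1.36 and 1.93 for Myh2 and -0.65 and 1.95 for Myh3. For the difference between days they were -1.29 and 3.44 for Myh1, -2.21 and 1.09 for Myh2 and -0.85 and 1.76 for Myh3. For 1 day against 0 day over both siRNAs they were -1.41 and 0.19 for Myh1 and -1.12 and 0.034 for Myh3. In control KD they were -3.20 and 0.052 for Myh1 and -1.36 and 0.15 for Myh2. In YBX3 KD they were -2.10 and 0.81 for Myh1, -2.61 and 0.30 for Myh2 and -1.57 and 0.60 for Myh3. Depth left Myh4, Myh6, Myh7 and Myh8 untested.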
